A study of Mus musculus with 6 samples.

Results

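Interferon genes were examined in CD31-positive cells from the lungs of newborn mice, 48 genes out of the 56941 gene IDs counted. The set was taken by gene symbol from a list of interferon receptors, STAT2 and interferon regulatory factors (IRFs), and the IFIT, OAS, GBP, IRG and IFITM families with other interferon-induced genes. The rule itself uses no measured value, but the members were chosen with earlier results of these data known. The question was whether Ifit3 changed alone in hyperoxia or together with a wider interferon response. As the question names Ifit3, the change in that gene is described here and is not an independent finding. Pups were kept in room air (21% oxygen) or hyperoxia (75% oxygen) from postnatal day 0, and lungs were taken on postnatal day 7, with 3 RNA-seq libraries in each of the 2 groups. Lungs were digested with an enzyme, and cells were selected with CD31 magnetic beads. The sources used here do not give the strain, genotype or sex of the pups, or whether a library holds 1 pup or several. P-values thus reflect only how far these libraries differ, a spread that may be technical. Since these are bulk samples, fewer cells of a type and less RNA per cell cannot be told apart.

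Interferons are secreted proteins that warn cells of infection. Type I interferons bind the receptor pair IFNAR1 and IFNAR2, type II interferon binds IFNGR1 and IFNGR2, and type III interferons bind IFNLR1 with IL10RB. Type I and III receptors activate STAT2 and IRF9, which act at the interferon-stimulated response element (ISRE) in promoters, while type II interferon acts on the gamma-activated site (GAS). IRF3 and IRF7 are activated by sensors of foreign nucleic acid, and IRF3 can bind ISREs without interferon. The IFIT proteins bind RNA or join complexes that do so, and their genes lie side by side on mouse chromosome 19.

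Of the 48 genes, 47 had enough reads to be tested. Between hyperoxia and room air, 3 of them rose (6.38%), all in the IFIT family: Ifit3, Ifit3b and Ifit2. Another 2 fell (4.26%), the transcription factor gene Irf3 and the type II receptor gene Ifngr1, and 42 did not pass. Over all 17072 genes tested, 6.77% rose, 4.41% fell and 11.2% changed in either direction, against 10.6% of the interferon genes, a share close to that background. Genes were called at an adjusted p below 0.05 by edgeR's quasi-likelihood test, adjusted over all genes tested, and adjusted p-values below are from that test unless another is named. DESeq2 and limma-voom each called 5 of the 47 as well, against 16.2% and 10.9% of all genes. The median log2 fold change was 0.0057 over the 47 genes and -0.0093 over all genes, and 39 of the 47 lay within 0.5 of 0. Among the 43 genes tested outside the IFIT family, 0 rose and 2 fell, with 4 of the uncalled genes at an unadjusted p below 0.05, and DESeq2 and limma-voom called 2 each. The lowest of their log2 fold changes was -1.07 and the highest 0.31, around a median of -0.04.

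**Figure D1:**
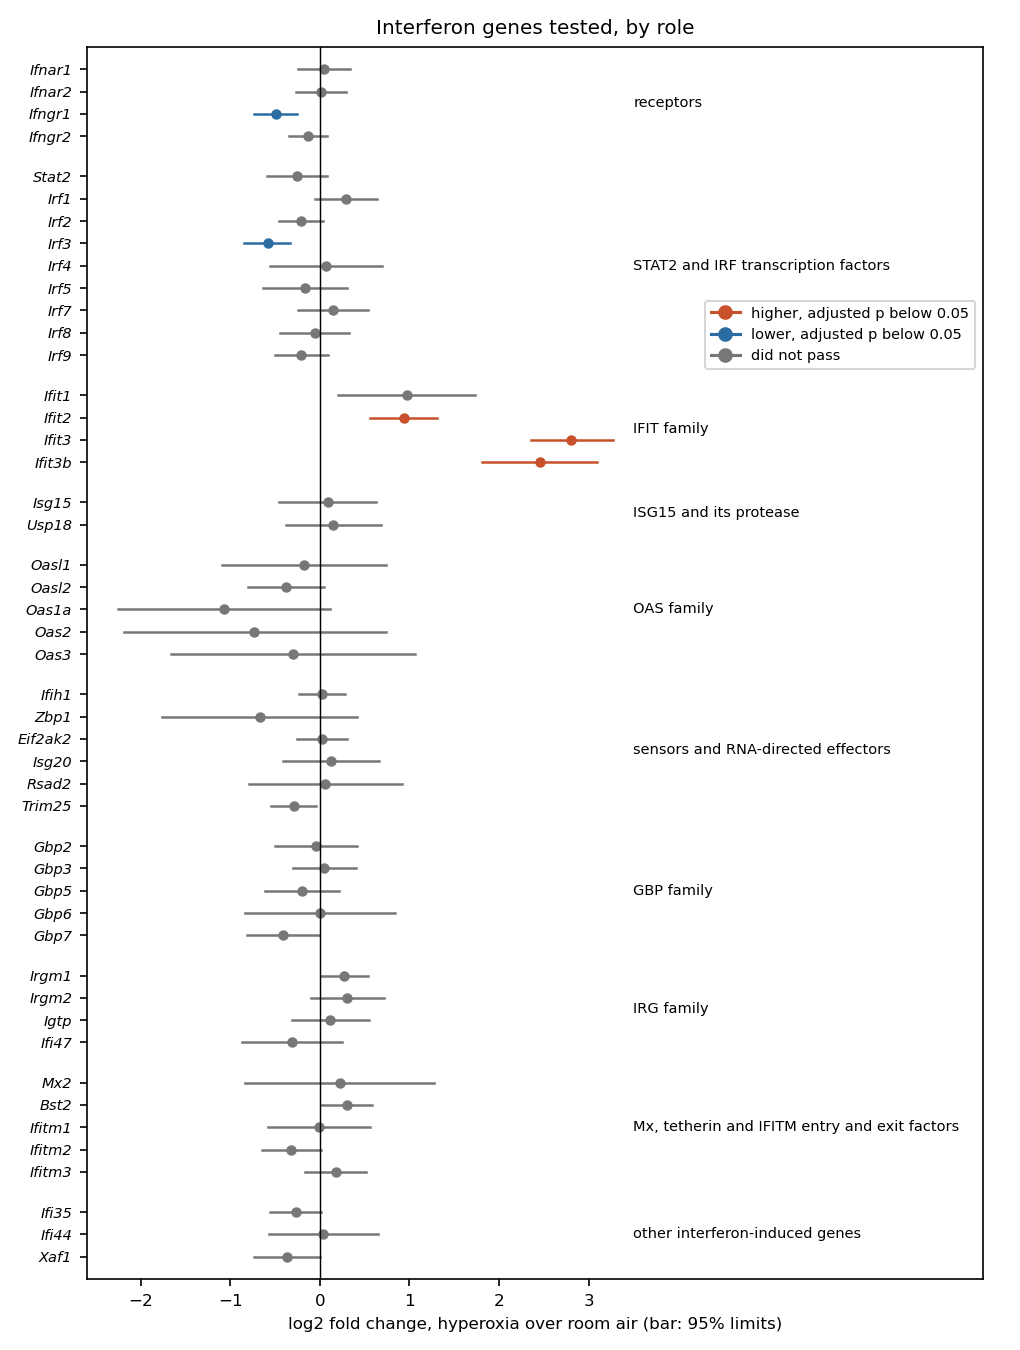
Log2 fold change, hyperoxia over room air, of the 47 interferon genes tested (points) with approximate 95% limits (bars), grouped by role. The IFIT genes stand to the right, Irf3 and Ifngr1 pass below 0, and no other gene passes.

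The libraries were of like depth, with 39379793 to 42343192 counts and 19471 to 23989 genes detected each. Endothelial markers were high in every library: 12 marker genes summed to 14784 to 21026 CPM (counts set to the same library total) in room air and 13996 to 18827 in hyperoxia. None of the 12 was called by edgeR (4 had an unadjusted p below 0.05) or limma-voom, and DESeq2 called 2. Estimates were below 0 for 10 of them and above 0 for 2, with a median log2 fold change of -0.22. The defining markers of the labelled cell type were thus present, and so were those of other lung cells. Alveolar type 2 markers summed to 12302 to 19252 CPM in room air and 13697 to 16742 in hyperoxia, of like size to the endothelial sums. Their sum was above the endothelial one in room air 3 (19252 against 14784 CPM) and hyperoxia 2 (16742 against 13996). Of these 8 genes edgeR called 0 and DESeq2 1, with 2 at an unadjusted p below 0.05. All 9 alveolar type 1 markers rose in hyperoxia, with summed levels of 2239 to 3160 CPM in room air and 5505 to 7279 in hyperoxia. General leukocyte markers summed to 254 to 527 CPM in room air and 323 to 444 in hyperoxia, and 0 of 7 passed in edgeR or DESeq2, with 0 at an unadjusted p below 0.05. Of 7 listed dendritic cell markers 5 were tested and 1, Itgax, rose. Its call ended without room air 1, room air 2 or hyperoxia 2 (adjusted p of 0.0779, 0.0882 and 0.0539). The list summed to 53.2 to 68.8 CPM in room air and 68.3 to 74.3 in hyperoxia. Nearly all of that was Clec9a (means 40.4 and 37.8 CPM) and Itgax (16.3 and 31.2), so it says little of dendritic cells. Of 13 macrophage and monocyte markers edgeR called 2, Marco and Cd68, both higher (log2 fold changes 2.22 and 0.87). DESeq2 called 3, and 4 had an unadjusted p below 0.05. Estimates were above 0 for 9 and below 0 for 4. Their sums, 955 to 1617 CPM in room air and 843 to 1051 in hyperoxia, were mostly Lyz2 (means 1037 and 731). Of 5 erythroid markers, 2 fell (DESeq2 called 4), with sums of 32 to 51.6 CPM in room air and 11 to 27.4 in hyperoxia and a median log2 fold change of -1.13. The 5 B cell markers and the 8 T and NK cell markers tested all had estimates below 0 (medians -0.34 and -0.56), and edgeR called none of them. At an unadjusted p below 0.05 there were 1 B cell and 0 T and NK cell markers, and DESeq2 called as many of each. Siglech, a marker of the plasmacytoid dendritic cells that make much type I interferon, had at most 22 counts in any library. The part of these other cells in the results was not tested. The libraries also differ by sex-linked reads: 4 Y-linked genes together had 5433 to 6361 counts in the room air libraries and 6263 in hyperoxia 2, but 2 and 0 in hyperoxia 1 and 3, which held 7007 and 9350 counts of Xist. A fit with Y-linked reads as a term, added after the data were seen, therefore rests on hyperoxia 2 against room air. Without hyperoxia 2, all hyperoxia libraries held Xist and almost no Y-linked reads, while all room air libraries held Y-linked reads. Oxygen and sex-linked reads cannot be told apart in such a fit.

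Ifit3 (ENSMUSG00000074896) was the most strongly raised of the interferon genes. The human IFIT3 protein is a partner that stabilises IFIT1 on viral RNA. The level of mouse Ifit3 was 2.88, 2.75 and 3.93 CPM in the 3 room air libraries and 22.8, 25.8 and 18.8 in the 3 hyperoxia libraries. Every hyperoxia library thus stood far above every room air library. The mean went from 3.19 ± 0.648 to 22.5 ± 3.51 CPM (SD, n = 3 each), a log2 fold change of 2.81 (SE 0.21, 95% limits 2.36 to 3.27, 7.03-fold, adjusted p = 9.62e-05). By size of log2 fold change, upward, Ifit3 ranked 34 of the 17072 genes tested.

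Ifit3b (ENSMUSG00000062488), a near copy of Ifit3 in the same cluster, moved with it. It measured 1.19, 0.893 and 1.11 CPM in room air and 6.59, 6.43 and 4.52 in hyperoxia, again with no overlap. The means were 1.06 ± 0.152 and 5.85 ± 1.15 CPM (SD, n = 3 each), a log2 fold change of 2.46 (SE 0.29, 5.48-fold, adjusted p = 0.000741). The copies are hard to tell apart by reads: 51.2% of the 50-base windows in Ifit3 exons and 45% of those in Ifit3b occur in another gene. The sources used here do not say how reads that fit both were counted, so the split between Ifit3 and Ifit3b is uncertain.

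Ifit2 (ENSMUSG00000045932), which encodes an RNA-binding partner of the other IFIT proteins, shares no such window with another gene. It rose as well, from 11.6, 10.3 and 14.0 CPM in room air to 19.6, 26.4 and 22.8 in hyperoxia. The groups did not overlap, with means of 12.0 ± 1.88 and 22.9 ± 3.41 CPM (SD, n = 3 each) and a log2 fold change of 0.94 (SE 0.17, 1.92-fold, adjusted p = 0.00573). Ifit1 (ENSMUSG00000034459), whose protein recognises the capped ends of foreign RNA, had an estimate of like size that did not pass. Its levels were 3.39, 1.99 and 2.37 CPM in room air and 6.52, 2.92 and 5.71 in hyperoxia. Hyperoxia 2 lay within the room air range and the other two hyperoxia libraries above it. The log2 fold change was 0.97 (SE 0.35, 95% limits 0.2 to 1.73, adjusted p = 0.106). Ifit1 passed without hyperoxia 2 (adjusted p = 0.024) or without the filter on low counts (0.0275), and with Y-linked reads as a term its log2 fold change was 0.18 (adjusted p = 0.796). Without hyperoxia 2, oxygen and sex-linked reads cannot be told apart.

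Ifit1bl2 (ENSMUSG00000067297), an Ifit1-like gene of the cluster outside the 48, came from a second list of interferon-stimulated genes. It went from 4, 6 and 5 counts in room air to 84, 219 and 110 in hyperoxia. Those counts correspond to 0.0968, 0.153 and 0.121 CPM in room air and 2.04, 5.41 and 2.79 in hyperoxia. Almost no reads were present in room air, and the highest hyperoxia library was hyperoxia 2. The room air counts were below the minimum count of 10, so Ifit1bl2 passed the filter on low counts through its hyperoxia libraries alone. That it was tested is thus tied to its rise. Without that filter its log2 fold change was also 4.76. The log2 fold change of 4.76 (SE 0.53, 95% limits 3.58 to 5.94, adjusted p = 0.000555) was larger than that of any of the 48. Its neighbour Ifit1bl1 measured 0.581, 0.102 and 0.314 CPM in room air and 0.678, 0.593 and 1.02 in hyperoxia, with a log2 fold change of 1.19 (SE 0.71, adjusted p = 0.338).

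**Figure D2:**
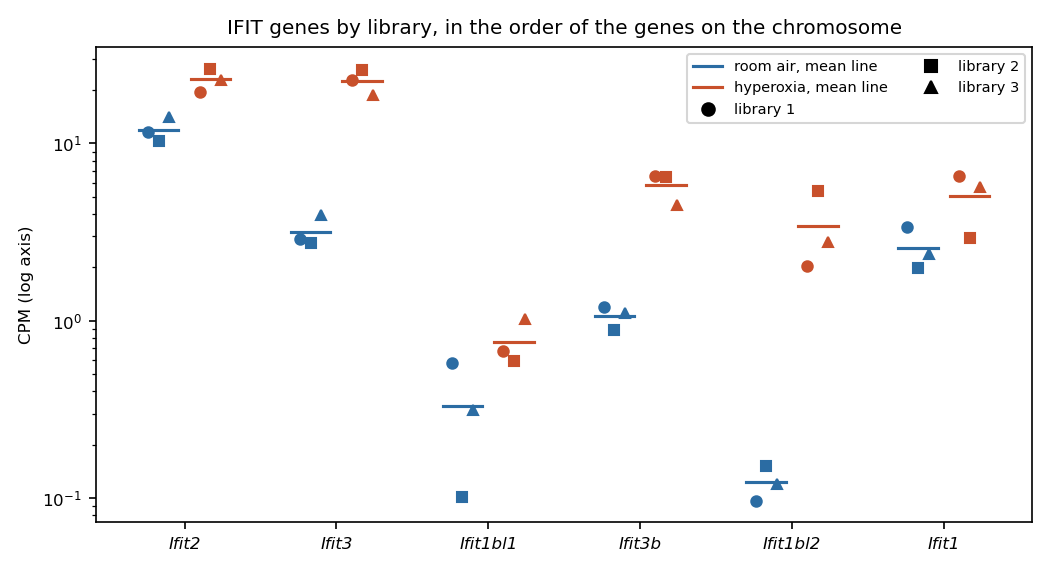
Level of the 6 IFIT genes in each library, in CPM on a log axis, with a line at each group mean, in chromosome order. Ifit3, Ifit3b and Ifit1bl2 are separated most between room air and hyperoxia, while Ifit1 in hyperoxia 2 (square, 2.92 CPM) falls inside the room air range.

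The promoters of the raised genes Ifit3, Ifit3b and Ifit1bl2, and that of Ifit1, are shown because these genes share the ISRE core, searched as GAAA, any 2 bases and GAAA. Each is the 250 bases before the RefSeq start (GRCm38.p6), 5′ to 3′ on the gene's strand, with matches to the core on either strand in capitals. The regions are chr19:34583279-34583528 (plus strand) for Ifit3, chr19:34607707-34607956 (plus strand) for Ifit3b, chr19:34640744-34640993 (minus strand) for Ifit1bl2 and chr19:34640639-34640888 (plus strand) for Ifit1.
Ifit3: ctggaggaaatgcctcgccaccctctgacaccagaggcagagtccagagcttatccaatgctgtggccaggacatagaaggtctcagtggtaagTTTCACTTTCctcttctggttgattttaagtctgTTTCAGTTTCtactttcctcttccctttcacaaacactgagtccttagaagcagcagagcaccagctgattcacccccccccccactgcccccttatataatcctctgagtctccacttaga
Ifit3b: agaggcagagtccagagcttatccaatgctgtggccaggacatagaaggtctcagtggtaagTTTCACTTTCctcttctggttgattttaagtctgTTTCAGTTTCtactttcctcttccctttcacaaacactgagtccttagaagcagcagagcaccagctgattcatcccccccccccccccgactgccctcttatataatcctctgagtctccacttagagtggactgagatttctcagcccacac
Ifit1bl2: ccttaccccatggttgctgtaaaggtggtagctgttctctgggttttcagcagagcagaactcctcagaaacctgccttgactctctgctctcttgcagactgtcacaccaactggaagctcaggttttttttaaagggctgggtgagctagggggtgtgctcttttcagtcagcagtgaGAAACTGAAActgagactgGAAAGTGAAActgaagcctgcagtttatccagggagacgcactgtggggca
Ifit1: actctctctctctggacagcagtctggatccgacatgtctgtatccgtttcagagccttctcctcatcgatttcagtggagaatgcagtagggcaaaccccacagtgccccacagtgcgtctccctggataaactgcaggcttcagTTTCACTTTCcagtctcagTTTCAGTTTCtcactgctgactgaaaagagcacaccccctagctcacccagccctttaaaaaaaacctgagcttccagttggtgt
Each of the 4 holds 2 matches, and that matches are present follows from how the 4 were picked. Ifit1bl1, which was not called, holds 1 match in each of its entries. A second RefSeq entry of Ifit1bl2, at chr19:34629762-34630061, holds 0. The Ifit3 and Ifit3b promoters are near copies, identical at 259 of 274 aligned columns (94.5%). Ifit1 and Ifit1bl2 start head to head 146 bases apart, and their upstream regions share 145 bases, in which both matches lie. Ifit2, which also rose, has no match to the core in its entries, which says only that these letters are absent from this window.

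Among all 32851 RefSeq promoters of this length (250 bases before to 50 after the start, both strands searched), 3.44% hold the ISRE core. Of the 48 genes, 42 have an entry and 21 of these (50%) hold it. Of those 21, 2 rose (Ifit3 and Ifit3b) and 0 fell, where 6.77% of all genes tested rose and 4.41% fell. The 2 are near copies whose reads are hard to tell apart, so they are not 2 separate cases. The median log2 fold change of the 21 was 0.053. The genes with the core and no call include Isg15, Rsad2, Stat2 and Bst2. The GAS core TTCNNNGAA, searched the same way, was in 16 of the 42 (38.1%), against 8.3% of all promoters. Of the 16, 1 rose (Ifit2) and 0 fell, again beside 6.77% and 4.41% of all genes. A match is a description of letters, not of binding.

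The ratio of Ifit3 to its relatives within each library does not depend on library scaling. Ratios are log2 of counts with 0.5 added, compared by an exact two-sided permutation test over the 6 libraries, which cannot go below 0.1. The Ifit3 to Ifit2 ratio was -2.0, -1.9 and -1.83 in room air and 0.22, -0.031 and -0.28 in hyperoxia. Ifit3 thus went from well below Ifit2 to about its count, a difference of 1.88 on the log2 scale (exact p = 0.1, adjusted over the 3 ratios 0.15). The Ifit3 to Ifit1 ratio was higher by 1.9, at -0.23, 0.47 and 0.73 in room air and 1.8, 3.14 and 1.72 in hyperoxia (exact p = 0.1, adjusted 0.15). The Ifit3 to Ifit3b ratio was 1.27, 1.61 and 1.81 in room air and 1.79, 2.0 and 2.05 in hyperoxia, with overlapping groups (difference 0.38, exact p = 0.2, adjusted 0.2). The groups did not overlap for the Ifit2 and Ifit1 ratios, but this test cannot reach 0.05 with 3 libraries against 3.

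The genes on either side of the cluster, chosen after values were seen, were mixed. In RefSeq order, the 5 protein-coding genes before Ifit2 were Stambpl1, Acta2, Fas, Ch25h and Lipa, of which Lipa alone passed, and its call ended when any 1 library was left out (adjusted p from 0.0571 to 0.139), with upper-quartile scaling (0.0576), library size alone (0.0647) or limma-voom (0.05). Lipa, the lysosomal acid lipase gene, measured 77.2, 80.9 and 83.9 CPM in room air and 102, 129 and 96.4 in hyperoxia (a log2 difference of 0.44, SE 0.12, adjusted p = 0.045). Of the 5 after Ifit1, 4 were tested. Slc16a12, a transporter gene next to Ifit1, rose from 2.90, 3.55 and 5.07 CPM to 8.21, 15.7 and 11.8 (log2 fold change 1.63, SE 0.29, adjusted p = 0.00492). Kif20b, a mitotic kinesin gene, fell by 1.01 on the log2 scale (adjusted p = 0.0126, or 0.0637 with Y-linked reads as a term), and Pank1 and Rpp30 did not pass.

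**Figure D3:**
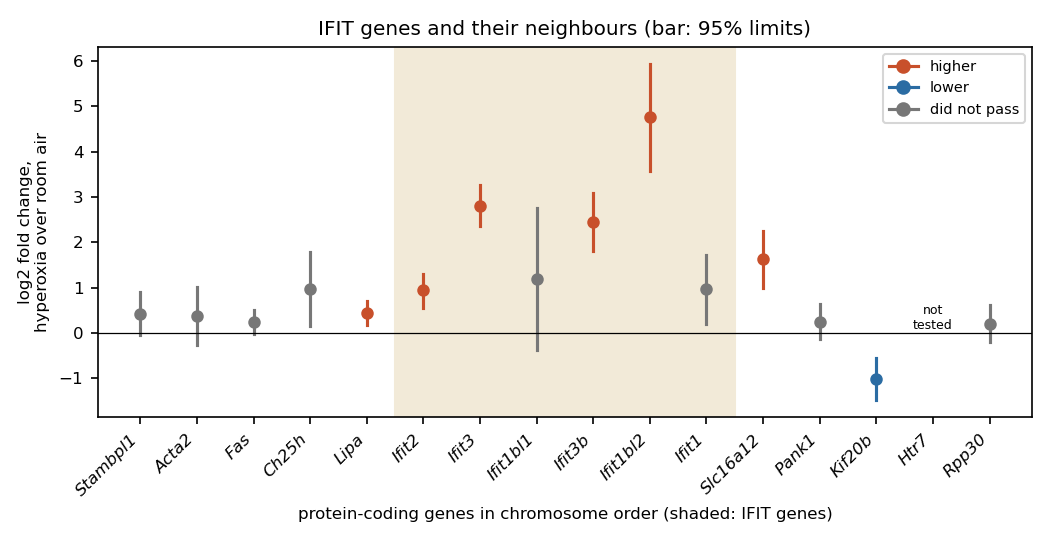
Log2 fold change with approximate 95% limits of the IFIT genes (shaded) and the 5 protein-coding genes on each side, in chromosome order and not to distance. Of the 6 IFIT genes 4 rose, against 1 of 5 tested before them (Lipa) and 1 of 4 tested after them (Slc16a12), where Kif20b fell. Of the 4, Ifit1bl2 passed the filter on low counts through its hyperoxia libraries alone.

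Among the receptors, Ifngr1, the ligand-binding chain for type II interferon, fell. It measured 156, 155 and 146 CPM in room air and 119, 98.9 and 108 in hyperoxia, so every hyperoxia library was below every room air library. The means were 152 ± 5.09 and 108 ± 9.98 CPM (SD, n = 3 each), a log2 fold change of -0.49 (SE 0.11, adjusted p = 0.015). Leaving out 1 library ended the call in 3 cases: room air 2 gave an adjusted p of 0.051, hyperoxia 2 of 0.0585 and hyperoxia 3 of 0.0657. Its partner Ifngr2 was 88.6, 83.1 and 82.7 CPM in room air and 78.0, 79.2 and 75.2 in hyperoxia, groups apart but not called (log2 fold change -0.13, adjusted p = 0.441). The type I receptor genes were nearly level, with log2 fold changes of 0.053 for Ifnar1 (adjusted p = 0.848) and 0.015 for Ifnar2 (adjusted p = 0.956).

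Irf3, the factor that switches on Ifnb1 and some ISRE genes after nucleic acid sensing, fell. It measured 63.8, 71.5 and 60.6 CPM in room air and 47.8, 40.6 and 42.3 in hyperoxia. The groups were apart, with means of 65.3 ± 5.62 and 43.6 ± 3.79 CPM (SD, n = 3 each) and a log2 fold change of -0.58 (SE 0.11, adjusted p = 0.00845). The other 8 genes of this group did not pass. Irf7, itself induced by interferon and an amplifier of the response, measured 13.3, 11.4 and 10.4 CPM in room air and 15, 12.5 and 11.4 in hyperoxia. These ranges overlap, and its log2 fold change was 0.15 (adjusted p = 0.645). Stat2 and Irf9, whose proteins act at ISREs, had log2 fold changes of -0.25 (adjusted p = 0.337) and -0.21 (adjusted p = 0.383). Irf1, an activator induced by type II interferon, was at 0.29 (adjusted p = 0.283), and Irf2, its antagonist, at -0.21 (adjusted p = 0.273). The lymphoid and myeloid factors Irf4, Irf5 and Irf8 lay between -0.16 and 0.067.

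Isg15, a ubiquitin-like protein among the genes most used as an interferon readout, was nearly level. It measured 5.13, 3.44 and 4.68 CPM in room air and 5.26, 4.47 and 4.37 in hyperoxia, with overlapping ranges (log2 fold change 0.089, adjusted p = 0.865). Usp18, the protease that removes ISG15 and damps type I signalling, was at 0.15 on the log2 scale (adjusted p = 0.752). The OAS genes encode enzymes that make the activator of the RNA-degrading RNase L, or relatives of them. All 5 had estimates below 0, from -1.07 to -0.17, and none passed in edgeR, DESeq2 or limma-voom, with 0 at an unadjusted p below 0.05. Oas1a had the lowest, at 3.0, 1.71 and 2.49 CPM in room air and 1.91, 0.346 and 1.17 in hyperoxia (-1.07 on the log2 scale, SE 0.54, adjusted p = 0.251). Its groups overlap, hyperoxia 2 is the lowest library, and 57.6% of its 50-base exon windows occur in another gene, chiefly Oas1g. Oasl2, the most abundant of the 5, was 34.1, 26.8 and 33.1 CPM in room air and 31.6, 17.9 and 22.8 in hyperoxia (log2 fold change -0.38, adjusted p = 0.263).

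None of the 6 sensors and RNA-directed effectors passed in edgeR, DESeq2 or limma-voom, with 1, Trim25, at an unadjusted p below 0.05. Ifih1, which encodes the long double-stranded RNA sensor MDA5, measured 27.7, 27.2 and 25.9 CPM in room air and 28.9, 25.9 and 27.3 in hyperoxia (log2 fold change 0.022, adjusted p = 0.93). Eif2ak2, the kinase PKR that halts translation on double-stranded RNA, was as level (0.022, adjusted p = 0.936). Rsad2, the antiviral enzyme viperin, measured 2.59, 1.50 and 1.57 CPM in room air and 2.71, 1.73 and 1.47 in hyperoxia. That gave a log2 fold change of 0.063 (adjusted p = 0.941). Trim25, the ubiquitin ligase that acts with RIG-I, was 104, 129 and 111 CPM in room air and 96.4, 91.2 and 93.7 in hyperoxia. Its groups were apart, but the log2 fold change of -0.29 (SE 0.11, adjusted p = 0.124) did not pass. Zbp1, a sensor of Z-form nucleic acid, varied widely at a low level (log2 fold change -0.67, adjusted p = 0.447), and the exonuclease gene Isg20 was at 0.13 (adjusted p = 0.792).

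**Figure D4:**
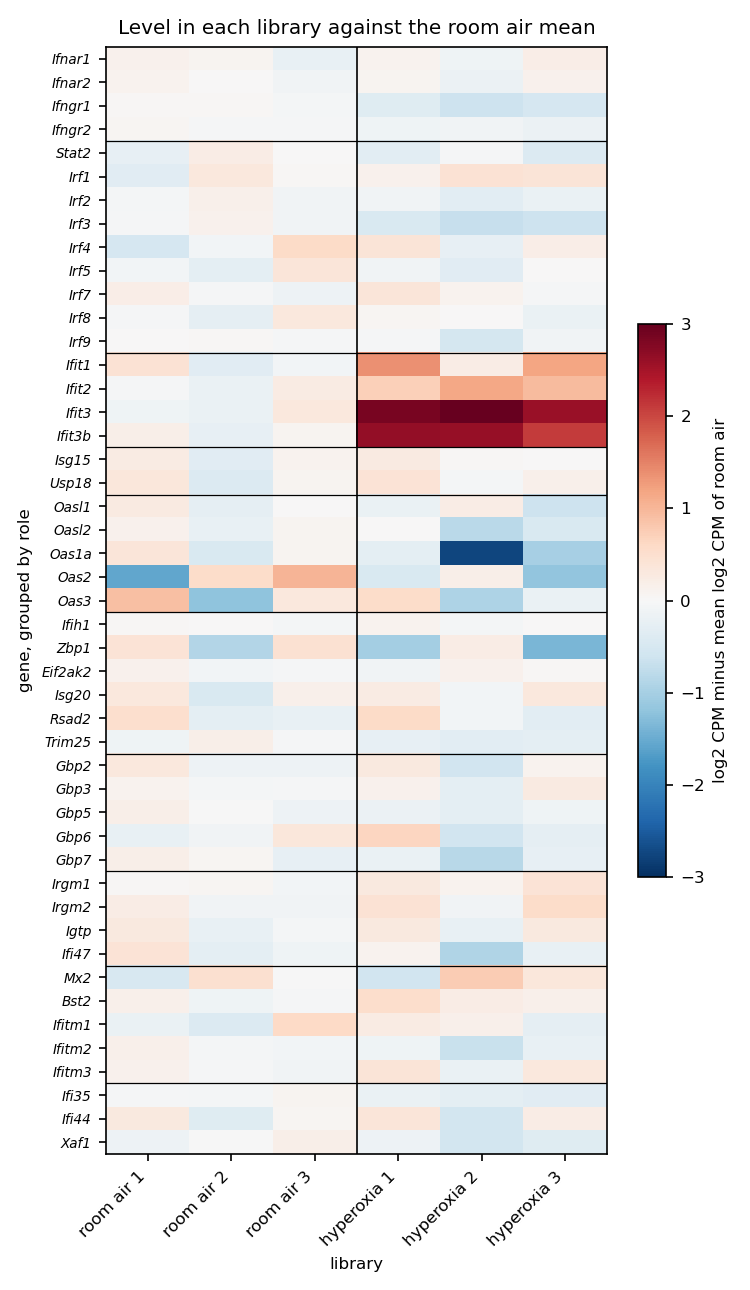
Level of each of the 47 tested genes in each library as log2 CPM minus the room air mean, colour scale from -3 to 3, with lines between roles. Ifit3 and Ifit3b are dark red in all 3 hyperoxia libraries, and no gene of another role rose.

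The GTPases that type II interferon induces strongly did not pass either. Of 5 GBP genes, guanylate-binding proteins that coat intracellular pathogens, none was called by edgeR, DESeq2 or limma-voom, and 1, Gbp7, had an unadjusted p below 0.05. Gbp2 measured 50.9, 37.1 and 36.7 CPM in room air and 50.0, 27.4 and 43.9 in hyperoxia, with a log2 fold change of -0.04. Gbp7 measured 39.3, 36.3 and 29.1 CPM in room air and 30.0, 19.3 and 29.3 in hyperoxia (log2 fold change -0.41, adjusted p = 0.185). Gbp6, at 0.0057, shares 70.7% of its exonic windows with another gene and is uncertain. Of the 4 immunity-related GTPase (IRG) genes, which act on pathogen vacuoles, 0 were called by any of the 3 tools, with 1 at an unadjusted p below 0.05. That gene, Irgm1, was 32.2, 32.7 and 29.9 CPM in room air and 38.7, 33.9 and 42 in hyperoxia, a small difference with groups apart (log2 fold change 0.27, adjusted p = 0.183). Irgm2, Igtp and Ifi47 were at 0.31, 0.12 and -0.31.

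Of the factors that act on virus entry and exit, 3 were the most abundant of the set, while Ifitm1 ranked 13, Mx2 45 and Mx1 48. Per kilobase of exon, Ifitm3, which blocks viral fusion, had the highest mean level, 324 CPM per kb in room air and 368 in hyperoxia, followed by Ifitm2 with 169 and 136 and by Bst2 with 94 and 115. Bst2, or tetherin, which holds budding virions at the cell surface, measured 94.7, 77.5 and 82.4 CPM in room air and 121, 98.4 and 93.4 in hyperoxia (log2 fold change 0.30, adjusted p = 0.175). Ifitm3 overlapped between groups (log2 fold change 0.18, adjusted p = 0.509), and Ifitm2 was lower in every hyperoxia library without passing (-0.32, adjusted p = 0.215). Ifitm2 shares 48.5% of its exonic windows with other genes, and 40.9% of its exonic bases overlap another gene. Mx2, an antiviral dynamin-like GTPase, was at 0.23 (adjusted p = 0.819) and Ifitm1 at -0.0099. Mx1, its paralogue, was not tested, with 4, 8 and 18 counts in room air and 10, 2 and 8 in hyperoxia. Ifi35, Ifi44 and Xaf1 were at -0.27, 0.04 and -0.36, and none of the 3 passed in edgeR, DESeq2 or limma-voom, with 0 at an unadjusted p below 0.05.

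By level per kilobase in room air, of the 48 genes Ifit3 ranked 34, Ifit1 39 and Ifit3b 42, with 1.83, 0.972 and 0.531 CPM per kb. In hyperoxia Ifit3 ranked 10 with 12.9 CPM per kb, and Ifit3b 32 with 2.92. Ifit2 went from rank 31 (3.04 CPM per kb) to rank 23 (5.83). Ifngr1 ranked 4 in both groups, with 53.5 and 38.1 CPM per kb. Ifit3 in hyperoxia still lay far below Ifitm3.

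**Figure D5:**
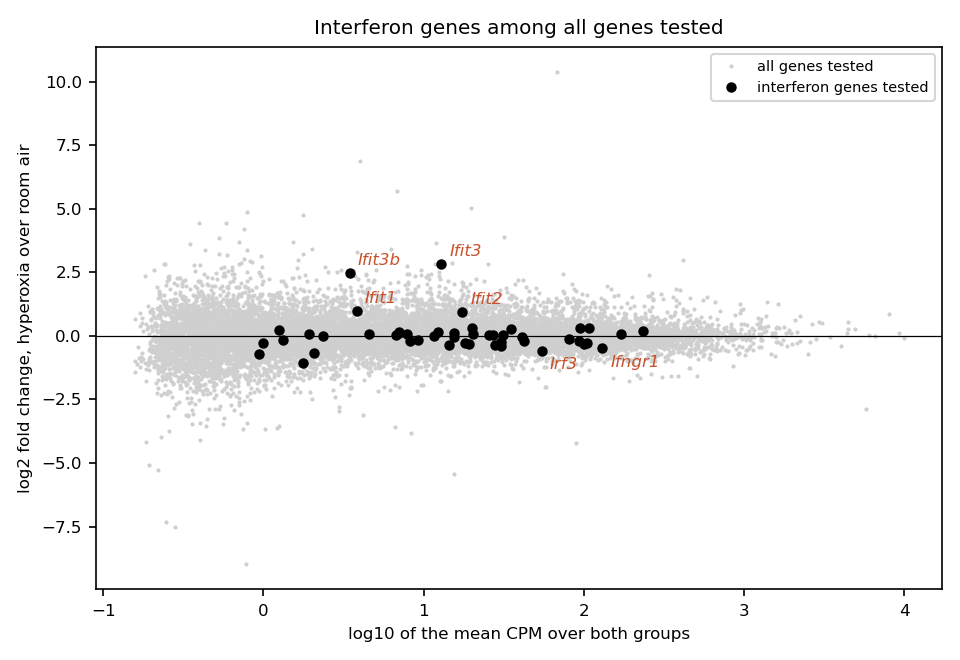
Log2 fold change, hyperoxia over room air, against log10 of the mean CPM over both groups, for all genes tested (grey) and the 47 interferon genes (black), with 6 named. Ifit3 (2.81) and Ifit3b (2.46) stand highest of the black points, and 39 of the 47 lie within 0.5 of 0.

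Groups that do not overlap were no more frequent among these genes than in general. With hyperoxia higher in every library there were 4 of 47 (8.51%), namely Ifit3, Ifit3b, Ifit2 and Irgm1, against 16.5% of all genes. With hyperoxia lower there were 6 (12.8%), namely Ifngr1, Ifngr2, Irf3, Trim25, Ifitm2 and Ifi35, against 14.4%. Hyperoxia 2 was often the lowest of its group: in 29 of the 47 genes (61.7%), against 41% of all genes tested. Room air 2 was likewise the lowest of its group in 24 of the 47 (51.1%), against 32.2%. Hyperoxia 2 is the hyperoxia library with Y-linked reads. It had the lowest endothelial marker sum of its group and the highest alveolar type 1 and type 2 sums. Its sums were also the highest for leukocyte, macrophage, dendritic cell, and T and NK cell markers. The same held for fibroblast (1021 CPM, against 677 and 625) and pericyte and smooth muscle markers (521, against 239.6 and 341). Among IFIT genes it was the highest of its group for Ifit3, Ifit2 and Ifit1bl2. It lay between the others for Ifit3b and was the lowest for Ifit1 and Ifit1bl1. With Y-linked reads as a term, 7 of the 47 fell and 3 rose, in a fit that called more genes in general (7.16% of all genes lower and 8.22% higher). The 5 that fell in addition were Oas1a (log2 -2.78, adjusted p = 0.0157), Gbp7 (-0.85, 0.018), Ifitm2 (-0.68, 0.0205), Oasl2 (-0.81, 0.037) and Irf9 (-0.52, 0.0432). Ifit3, Ifit3b, Ifit2, Ifit1bl2 and Irf3 kept their calls with that term and without hyperoxia 2. In the fit without hyperoxia 2, sex-linked reads split the libraries as oxygen did.

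Of 34 further genes of interferon production and signalling, 25 were tested, 1 rose and 1 fell (4% each, against 6.77% and 4.41% of all genes), with a median log2 fold change of 0.0091. DESeq2 called 4 and limma-voom 2 of the 25, against 16.2% and 10.9% of all genes. Ifnlr1, the type III receptor chain, rose from 3.17, 3.6 and 5.82 CPM in room air to 8.48, 14.7 and 9.22 in hyperoxia, with no overlap (log2 fold change 1.36, SE 0.29, adjusted p = 0.0139). Leaving out room air 1 or room air 2 ended the call (adjusted p of 0.0568 and 0.0667). In lung this receptor is known chiefly from epithelium and neutrophils. The sum of alveolar type 1 markers was likewise highest in hyperoxia 2, but so were the fibroblast and the pericyte and smooth muscle sums. Of 7 neutrophil markers edgeR called 0, with a median log2 fold change of 0.042. Any relation of these cells to Ifnlr1 was not tested. Tyk2, a kinase of the type I and III receptors, fell from 49.1, 50.9 and 39.7 CPM to 37.0, 26.9 and 32.1 (log2 fold change -0.54, SE 0.15, adjusted p = 0.0384). The call ended when room air 2 was left out (adjusted p of 0.141), and also when room air 1, hyperoxia 2 or hyperoxia 3 was (0.103 each).

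Transcripts of the interferon genes looked for were absent or nearly so. Of these 8 genes, 7 (Ifnb1, Ifna2, Ifna4, Ifnk, Ifne, Ifnl2 and Ifnl3) had 0 counts in all 6 libraries. Other interferon genes, among them further Ifna genes, were not looked for. A count of 0 allows up to 3 counts, which is 0.0708 to 0.0762 CPM on the raw library totals, for counting error only. Ifng, the type II interferon gene, had 2, 3 and 7 counts in room air and 11, 0 and 2 in hyperoxia and was not tested.

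A second list of 79 interferon-stimulated genes outside the 48 had 78 in the table and 73 tested. Of these, 2 rose, 6 fell and 65 did not pass, which is 2.74% higher and 8.22% lower, against 6.77% and 4.41% of all genes. The groups did not overlap with hyperoxia lower for 21.9%, against 14.4% of all genes, and with hyperoxia higher for 11%, against 16.5%. Estimates were below 0 for 49 of the 73, with a median of -0.24, DESeq2 called 18 and limma-voom 9, against 16.2% and 10.9% of all genes. Besides Ifit1bl2, the gene that rose was Cd274, the checkpoint ligand PD-L1, from 3.27, 4.72 and 4.85 CPM to 7.29, 7.39 and 7.51 (log2 fold change 0.79, SE 0.23, adjusted p = 0.047). Its call was lost when any 1 library was left out, with adjusted p from 0.056 to 0.143, and also with upper-quartile scaling (0.055), library size alone (0.0622) or Y-linked reads as a term (0.0998). Sp100, a component of nuclear bodies, fell from 46.8, 48.7 and 52.7 CPM to 27.2, 25.7 and 28.0, groups well apart (log2 fold change -0.87, SE 0.11, adjusted p = 0.000874). Phf11d, a PHD finger gene, fell from 23.0, 22.4 and 21.5 CPM to 12.8, 11.8 and 10.7 (log2 fold change -0.92, SE 0.14, adjusted p = 0.00244). Mndal and Ifi203, of the DNA-binding PYHIN family, fell by 1.03 (SE 0.19, adjusted p = 0.00577) and 1.04 (SE 0.22, adjusted p = 0.0126) on the log2 scale. Both share windows with other genes (19.6% and 12.2%), and Ifi203 missed the threshold without hyperoxia 3 (adjusted p = 0.0514). Tor3a and Helz2 also fell, but Helz2 missed the threshold when room air 2, hyperoxia 1 or hyperoxia 2 was left out (adjusted p of 0.0671, 0.0629 and 0.0603) and with Y-linked reads as a term (0.0502).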

How the data were processed

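RNA-seq libraries of CD31-selected lung cells from 3 room air and 3 hyperoxia samples were analysed, grouped and numbered by their titles. The authors deposited raw counts per Ensembl gene ID. The build GRCm39 and the tools DESeq2, featureCounts, HISAT2 2.2.1 and Subread 2.0.6 are named, without roles, per the submitters' processing notes. The sources used here do not give the strand setting or the rule on multimapping reads, so counts of near copies and overlapping genes are uncertain.

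Genes were kept by filterByExpr (minimum count 10, minimum total 15), scaled by TMM (factors 0.975 to 1.04) and compared in R 4.3.3 by edgeR 4.0.16's robust quasi-likelihood test with no covariate, with Benjamini-Hochberg adjustment over 17072 genes. Levels are CPM after TMM. Standard errors and 95% limits are approximate. The biological coefficient of variation, common to all genes, was 0.229. Alternatives were DESeq2 1.42.0, limma-voom (limma 3.58.1), other scalings and filters, the replicate number as a block, and libraries left out. In simulated data of 17072 genes with this comparison's design, edgeR recovered 51% of genes changed by 1 on the log2 scale and 99% of those changed by -2. The simulation gave all genes 1 common spread and changed 100 genes at each size, while 1909 genes were called in the data. Symbols were matched by ID for 51948 IDs, and 3 list genes through an older symbol. Exon lengths, overlaps and 50-base windows came from GENCODE M21 (GRCm38) and promoters from RefSeq (GRCm38.p6).

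No library duplicated another of its group (lowest chi-square over its degrees of freedom 15.2). The members and lists were chosen with earlier results of these data known. By rule, all 48 genes, and of the further lists at most 6 called genes by size, could be named with values. Genes beside the IFIT cluster, the interferon genes, Ifit1bl1, Tor3a, Helz2, Itgax, Clec9a, Marco, Cd68 and Lyz2 were named after their values were seen.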

Additional observations from a re-analysis of the deposited data

How the results depend on the processing

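In each of the 16 alternatives, Ifit3 (log2 fold change 2.71 to 3.01), Ifit3b (2.34 to 2.60), Ifit2 (0.83 to 1.14), Ifit1bl2 (4.23 to 5.42) and Irf3 (-0.69 to -0.52) kept their calls. The alternatives without hyperoxia 2 cannot tell oxygen from sex-linked reads. The replicate number did not pair the libraries (same-number correlations of 0.112, -0.039 and -0.09), and with the replicate number as a block 3 of the 47 interferon genes rose and 2 fell, while Tyk2 (adjusted p = 0.0598), Cd274 (0.0832) and Lipa (0.0818) missed the threshold. Over all genes, 1909 were called in the main analysis, 1395 with the block, 1057 to 1844 with 1 library left out and 2626, of which 1223 lower, with Y-linked reads as a term. The number of interferon genes that fell, 2 in the main analysis, was 1 to 2 with 1 library left out and 7 with Y-linked reads as a term. In the signalling list, the number that rose was 2 without the filter on low counts and with DESeq2, and 0 to 2 with 1 library left out. There, the number that fell was 2 with DESeq2's size factors, upper-quartile scaling, library size alone, no filter, a minimum of 1 CPM in 3 libraries or the DESeq2 test, 4 with Y-linked reads as a term and 0 to 1 with 1 library left out. In the second list of interferon-stimulated genes, the number that rose was 1 with upper-quartile scaling, library size alone or the replicate block, 4 without the filter or with DESeq2, 3 with Y-linked reads as a term and 1 to 2 with 1 library left out. The number that fell there was 9 with DESeq2's size factors, upper-quartile scaling or the 1 CPM minimum, 15 without the filter or with Y-linked reads as a term, 14 with DESeq2 and 5 to 8 with 1 library left out. Of 1087 values for 68 named genes under alternatives, 1035 stayed on the same side of the threshold, 42 lost a call and 10 gained one (71 estimates that passed in neither changed sign), and no called value changed sign. The causes were not tested. With 3 libraries a group, a change of the size of Ifit1's may be missed. The simulation gave all genes 1 common spread, so its 51% is not the share for Ifit1.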
